A study of Drosophila melanogaster with 4 samples.

Results

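RPD3 clusters on the X chromosome of Drosophila melanogaster are the regions where chromatin bound by the histone deacetylase RPD3 was called significantly enriched over Input. The clusters described here come from the authors' combined list of both replicates. They lie on X, are under 10000 bp wide and have their midpoint at or below position 20422827 of FlyBase release 5, which leaves out the last 2 Mb of the assembled arm, at its centromere end. Of the 7145 enriched clusters of the combined list, 1217 met this rule, which is 17.0% of the list. The members were chosen by the authors' enrichment call, by position and by width, so the number, place and width of these clusters are a description and not a finding. The lists hold only regions that passed the authors' calling, and nothing is known from them of the sequence in between.

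The data came from chromatin immunoprecipitation followed by sequencing (ChIP-seq) with the antibody labelled RPD3-Q3451, on nuclei of wild-type Oregon-R larvae in the third instar. There were 2 ChIP samples and 2 Input samples, and each ChIP list was called against the Input of its own replicate number. All 4 samples shared the strain, genotype and stage. The labels give neither the tissue nor the sex of the larvae, and do not say whether the replicates were separate collections, so their spread may be technical only. The lists give no read counts, so the sequencing depth is unknown.

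RPD3 is a deacetylase that removes acetyl groups from histone tails and works within corepressor complexes, among them those built on Sin3 and the NuRD complex. Histone acetylation opens chromatin and accompanies transcription, and deacetylases are recruited to repressed genes and also to many active ones. The X chromosome of Drosophila is known for dosage compensation: in males the MSL complex, with its acetyltransferase MOF, binds genes along X, acetylates histone H4 and raises their transcription. The lists here name no genes and do not measure acetylation.

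On X the clusters were mostly a few kilobases wide and frequent along the whole range. The 1217 combined clusters covered 3.66 Mb, or 17.9% of the 20.4 Mb range, at 59.6 clusters per Mb. In the same range and under the same width limit, replicate 1 held 971 clusters that covered 15.3% and replicate 2 held 876 that covered 13.3%, a mean of 14.3% ± 1.43 (SD, n = 2). Median widths were 2571 bp in replicate 1 and 2641 bp in replicate 2, a mean of 2606 ± 49.5 bp (SD, n = 2), and 2293 bp among combined clusters. The combined clusters ran from 1001 bp to 9934 bp, with the middle of the distribution between 1559 and 3931 bp (25th to 75th percentiles). The narrowest X cluster of each replicate spanned 1301 bp, so the combined list reaches a narrower class of cluster than either replicate.

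By number, clusters on X left out by the rule were few, and the bases under them are not in the covered shares given here. Within the range on X, 47 combined regions were domains of 10000 bp or more, against 20 in replicate 1 and 2 in replicate 2. The centromere end held 56 further combined clusters under the width limit. At the width limit, the members of 9934, 9870 and 9794 bp had scores of 1.18, 1.30 and 1.25, and the excluded domains of 10043, 10149 and 10451 bp had scores of 1.095, 1.451 and 1.496. At the position limit, the last members were at 20392523 to 20397197 (score 1.38), 20390740 to 20392042 (0.409) and 20384997 to 20386255 (0.339). The first excluded clusters lay at 20526187 to 20528972 (0.711), 20630512 to 20632686 (1.18) and 20796199 to 20797208 (0.558). The scores inside and outside each limit overlapped. The score is the authors' own value for each cluster, on a scale that is not given in the sources used here, so X and the autosomal arms are compared within each list. Scores of 1 position in different lists are set side by side only as the authors give them, since the lists may not share a scale.

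Most of the sequence under X clusters was under clusters that both replicates held. Of the 1217 combined clusters, 625 overlapped a cluster of each replicate by at least 1 bp, which is 51.4% (Wilson 95% interval 48.5 to 54.2%, counting error only), where 53.7% of all combined clusters did. These held 72.8% of the bases under X clusters, where clusters in both replicates held 78.0% of the bases under all combined clusters and 73.8% of those on the autosomal arms compared below. Replicate 1 alone overlapped 206 (16.9%), replicate 2 alone overlapped 61 (5.01%), and neither overlapped 325, which is 26.7% (24.3 to 29.3%), where 25.7% of all combined clusters overlapped neither. On the autosomal arms 2L, 2R, 3L and 3R, taken over the same kind of range (under 10000 bp, without the 2 Mb next to the centromere), 52.1% of 5045 combined clusters were in both and 26.1% in neither. The combined list is made from the replicates, so these shares carry no test.

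Whether a combined X cluster was found in the replicates went with its width. Of the 287 X clusters under 1500 bp, none overlapped both replicates and 235 overlapped neither (81.9%, and 82.2% on the autosomal arms). From 1500 to under 2000 bp 15 of 212 overlapped both, which is 7.08%, against 14.7% on the autosomal arms. From 2000 to under 3000 bp 191 of 269 did (71.0%, and 74.0% on the autosomal arms). From 3000 to under 5000 bp it was 229 of 255 (89.8%, and 89.9%), and from 5000 bp up 190 of 194 (97.9%, and 99.0%). No X cluster of 3000 bp or more was missing from both replicates. Of the 325 X clusters in neither replicate, 182 were narrower than any replicate cluster, and their median width was 1256 bp, against 3751 bp for those in both.

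**Figure D1:**
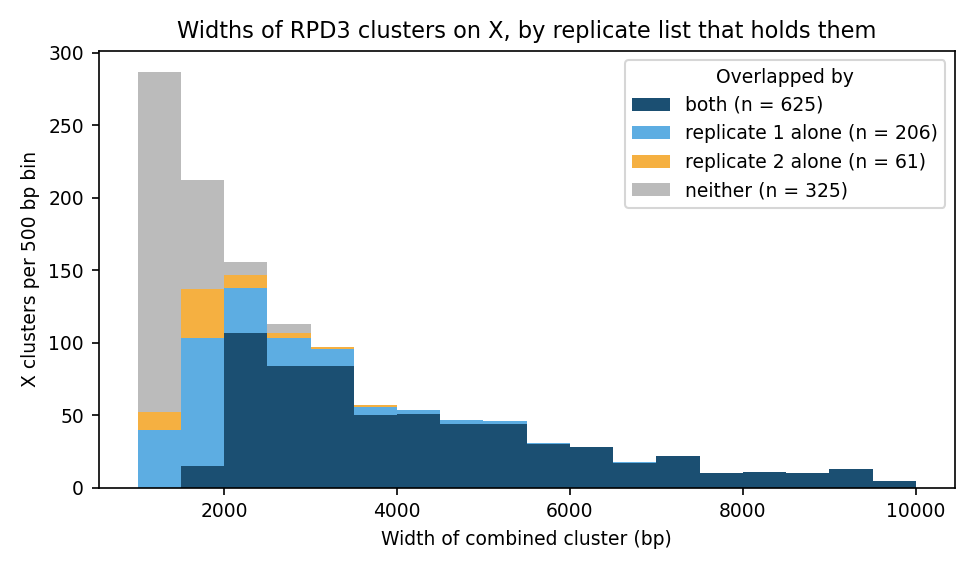
Number of combined X clusters (y axis) by width in bins of 500 bp (x axis), stacked by the replicate lists that hold an overlapping cluster. The 325 clusters in neither replicate are all under 3000 bp wide, and clusters of 5000 bp and more are nearly all among the 625 in both replicates.

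X clusters found in both replicates had the highest median score, though the classes overlapped. Scores ran from 0.267 to 2.62 for those in both and from 0.161 to 1.16 for those in neither. The median score was 0.960 for X clusters in both replicates, against 0.434 for those in neither, 0.434 for those in replicate 1 alone and 0.418 for those in replicate 2 alone. These last 3 classes had like scores but not like widths, since the median width was 1886 bp in replicate 1 alone and 1853 bp in replicate 2 alone. In the top 25% of X scores 300 of 304 clusters were in both replicates, in the next 25% 249 of 304, in the next 54 of 304, and in the lowest 25% 22 of 305. Such counts were not made for the autosomal arms or the whole list, so they are not shown to be particular to X. On the autosomal arms too the median score was higher for clusters in both replicates (0.819) than for those in neither (0.367). Width and score go together on X, with a Spearman's rho of 0.76 across the clusters of replicate 1, 0.74 in replicate 2 and 0.71 in the combined list.

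On X most clusters of each replicate had a counterpart in the other. Replicate 1 had 971 X clusters, and replicate 2 held a counterpart for 723 of them, or 74.5% (Wilson 95% interval 71.6 to 77.1%), where 77.3% of replicate 1 clusters had one in the list as a whole. Replicate 2 had 876, and replicate 1 held a counterpart for 796, or 90.9% (88.8 to 92.6%), where the share in the whole list was 91.4%. The bases covered in both lists were 0.631 of the bases covered in either, and this index was 0.630 on the autosomal arms. The X clusters that the other replicate lacked were narrow and low in score. The 248 of replicate 1 had a median width of 1648 bp and a median score of 0.634, against 3088 bp and 1.08 for the shared ones. The 80 of replicate 2 had medians of 1515 bp and 0.604, against 2785 bp and 1.06.

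In 588 pairs, a cluster of replicate 1 and a cluster of replicate 2 on X overlapped only each other. Their midpoints lay a median of 161 bp apart, and within 691 bp in 90% of pairs. Replicate 1 gave the wider cluster in 395 of the 588 pairs, with median widths of 2890 bp in replicate 1 and 2650 bp in replicate 2. Scores ranked alike in the pairs, with rho (Spearman) at 0.88 and r (Pearson) at 0.90 across pairs, which share their 2 libraries and are not independent replicates. The absolute difference between the paired scores had a median of 0.124 and was under 0.314 in 90% of pairs, and the SD within pairs was 0.148. Replicate 2 gave the higher score in 230 pairs (39.1%). Since the lists may not share a scale, these differences describe the scores only as the authors give them.

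**Figure D2:**
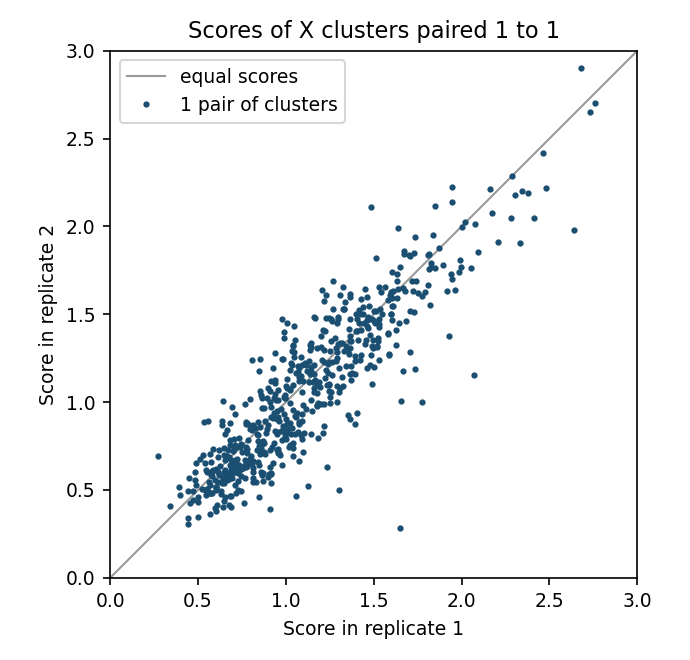
The authors' score of each X cluster in replicate 1 (x axis) and of the cluster it pairs with in replicate 2 (y axis), for 588 pairs, with the line of equal scores. Most pairs lie near the line, 14 differ by over 0.5, and 1 pair with scores of 1.65 and 0.282 lies far below it.

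A few pairs differed widely in score. The pair with the widest difference, chosen after its values were seen like the other pairs named here, lay at 10143153 to 10145257 in replicate 1 and at 10143322 to 10145224 in replicate 2. It scored 1.65 in replicate 1 and 0.282 in replicate 2, the lowest score of any replicate 2 cluster on X in the range, and 1.04 in the combined list. A pair at 19180937 to 19183067 of replicate 1 scored 2.07 in replicate 1 and 1.15 in replicate 2, although its edges in replicate 2, 19180965 and 19183065, were within 28 bp of those in replicate 1. A pair at 18132480 to 18134587 of replicate 1 scored 1.30 in replicate 1 and 0.499 in replicate 2. In the other direction, a pair at 10487965 to 10491463 of replicate 1 scored 0.979 in replicate 1 and 1.48 in replicate 2. The largest difference in that direction went with a difference in extent, since a cluster of 7432 bp at 11026381 to 11033812 of replicate 1 scored 1.483 and its partner of 4222 bp in replicate 2 scored 2.11. Of the 588 pairs, 14 differed by over 0.5.

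The highest-scoring X clusters stood in both replicates and were wider than the median X cluster of 2293 bp. The first was at 8291316 to 8294782, 3467 bp wide, with scores of 2.76 in replicate 1, 2.70 in replicate 2 and 2.62 in the combined list, where it ranked 15 of 7145. The second was at 11587583 to 11591047, 3465 bp wide, with scores of 2.73 in replicate 1, 2.65 in replicate 2 and 2.46 in the combined list. These clusters differed between replicates by less than the SD within pairs of 0.148. The median difference over all pairs, 0.124, was also under that SD, so the same was true of most pairs.

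Some of the next clusters had wider differences between replicates than the first and second, though that of the fifth was also under the SD within pairs. The third, at 18263695 to 18266876, scored 2.48 in replicate 1 and 2.22 in replicate 2. The fourth, at 6492209 to 6495111, scored 2.38 and 2.19, and the fifth, at 9551434 to 9554582, scored 2.34 and 2.20. The ninth in the combined list, at 15353506 to 15358390, had a combined score of 2.15 but scored 2.68 in replicate 1 and 2.90 in replicate 2, the highest score of replicate 2 on X in the range. Its replicate clusters were narrower, at 3170 and 2679 bp, than the combined cluster of 4885 bp.

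The other 4 of the 10 highest X clusters had combined scores from 2.13 to 2.19. They lay at 17778727 to 17785472, 7860683 to 7865512, 5630629 to 5633233 and 801865 to 804815. The one at 7860683 to 7865512 scored nearly the same in both replicates, with 2.285 in replicate 1 and 2.286 in replicate 2. The one at 17778727 to 17785472, 6746 bp wide, held 2 clusters in each replicate, while the others of the 10 held 1 in each. All 10 were between 2605 and 6746 bp wide and ranked from 15 to 42 in the combined list, and no X cluster of the range was among the 10 highest of that list. By contrast, 4 of the 10 highest clusters of replicate 1 and 3 of the 10 highest of replicate 2 were on X in the range, which held 17.7% and 17.6% of all clusters of these lists.

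The 5 widest X clusters had scores well below the highest, and all 5 held 2 clusters in replicate 2, while 4 of them were 1 cluster in replicate 1. The widest, at 5768726 to 5778659, spanned 9934 bp with a combined score of 1.18, rank 205 on X. It was 1 cluster of 9592 bp in replicate 1 and 2 clusters in replicate 2, the larger of 6338 bp. The next, at 11907506 to 11917375, scored 1.30 and held 2 clusters in each replicate. The others lay at 17713410 to 17723203 (1.25), 1352777 to 1362360 (1.25) and 1368992 to 1378531 (1.36), each with 1 cluster in replicate 1 and 2 in replicate 2. Among the 625 X clusters in both replicates, 504 held exactly 1 cluster of each replicate, and 121 held 2 or more of at least 1 replicate.

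At the low end, the 5 lowest-scoring X clusters that both replicates held were between 1899 and 1969 bp wide, with combined scores from 0.267 to 0.335. The lowest was at 16138069 to 16139974, with 0.452 in replicate 1 and 0.429 in replicate 2. The others lay at 19780516 to 19782460, 17518174 to 17520072, 20114769 to 20116700 and 10628962 to 10630930. All 5 had a combined score under both replicate scores.

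Some X clusters of fair score were in neither replicate. The highest of these, at 142 to 1432, lies at the very start of the assembled X and scored 1.16, with a width of 1291 bp. Another, at 9953 to 10967, lies near the same end and scored 1.07, and a cluster at 2202673 to 2203694 had exactly the same score. The remaining clusters among the 5 highest lay at 17007649 to 17008706 (1.13) and 14445330 to 14446338 (0.903). All 5 were under 1301 bp, the narrowest width in the replicate lists. Of the 1217 scores on X 99 were exactly equal to that of another X cluster, and the largest such group was 7 clusters with 0.530.

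Some X clusters of 1 replicate had no counterpart in the other. The highest-scoring ones of replicate 1 lay at 13077353 to 13078792 (1.06), 17661319 to 17663462 (1.03) and 1416484 to 1418492 (0.987). Those of replicate 2 lay at 1528764 to 1530688 (0.948), 6464553 to 6466649 (0.880) and 2178518 to 2179990 (0.811). All 6 overlapped a combined cluster, with combined scores from 0.376 to 0.725. Within their own list they ranked between 376 and 544 on X.

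Combined X clusters that matched 1 cluster of each replicate were mostly wider than these counterparts and had scores below or between theirs. In the 484 cases where 1 cluster of each list overlapped only the others, median widths were 3276 bp for the combined clusters, 2799 bp for replicate 1 and 2610 bp for replicate 2. The combined cluster was wider than both in 413 of the 484. Its score lay below both replicate scores in 274 cases, between them in 210 and above both in 0. The lists may not share a scale, so these counts describe the scores only as given. The median score was 0.945 for the combined clusters, 1.04 for replicate 1 and 1.01 for replicate 2.

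Along X, the density of RPD3 clusters was uneven. Over 40 windows of 500 kb, from the start of X to 20 Mb, combined clusters under 10000 bp covered between 6.11% and 32.5% of a window, with a median of 18.2%. The windows held between 11 and 53 combined clusters, with a median of 29.5. The replicates traced the same profile, with rho (Spearman) and r (Pearson) both at 0.96 across the 40 windows, and replicate 1 covered more than replicate 2 in 34 of them. Neighbouring windows are not independent.

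**Figure D3:**
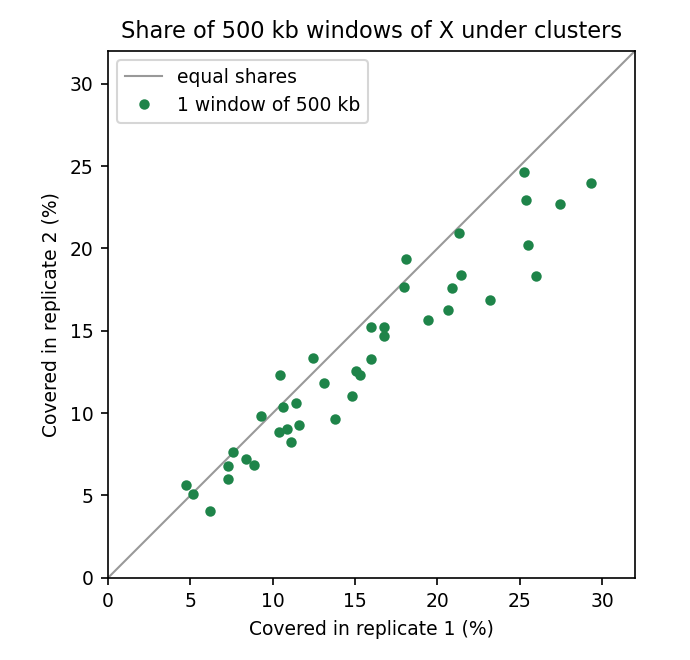
Share of each of 40 windows of 500 kb on X under clusters of replicate 1 (x axis, percent) and of replicate 2 (y axis, percent), with the line of equal shares. The windows run from about 4% to 30%, dense windows of 1 replicate are dense in the other, and 34 windows lie below the line.

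The densest window of the combined list lay at 1.5 to 2.0 Mb, with 53 clusters on 32.5% of its sequence, and 25.2% covered in replicate 1 and 24.7% in replicate 2. It was the densest of X in replicate 2 but ranked 6 in replicate 1, where the window at 15.5 to 16.0 Mb came first with 29.3%. The next in the combined list were the neighbouring window at 2.0 to 2.5 Mb (31.2%, with 25.3% in replicate 1 and 23.0% in replicate 2) and the window at 6.5 to 7.0 Mb (30.9%, with 27.4% and 22.7%).

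The sparsest window lay at 14.0 to 14.5 Mb, with 12 clusters on 6.11% of its sequence, and 4.75% covered in replicate 1 and 5.61% in replicate 2. Of the 40 windows it ranked 40 by coverage in replicate 1 and 38 in replicate 2, whose sparsest window lay at 3.0 to 3.5 Mb with 4.07%. In the combined list it was followed by 4.0 to 4.5 Mb (7.12%) and 7.0 to 7.5 Mb (7.35%). The window at 7.0 to 7.5 Mb ranked 39 in both replicates, but that at 4.0 to 4.5 Mb ranked 31 in both, with 10.4% covered in replicate 1 and 8.88% in replicate 2. The window at 4.0 to 4.5 Mb also held 2 domains of 10000 bp or more, which the rule leaves out. The windows at 14.0 to 14.5 Mb and 7.0 to 7.5 Mb held 1 each, and that at 3.0 to 3.5 Mb held 0. In all, 29 of the 40 windows held such a domain.

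The sparsest window was not a window of weak clusters. The median score at 14.0 to 14.5 Mb was 1.10 over 8 clusters of replicate 1 and 1.17 over 10 of replicate 2. The dense window at 1.5 to 2.0 Mb had a median of 0.775 over 40 clusters of replicate 1 and 0.902 over 39 of replicate 2. The longest stretch without a member ran for 269396 bp between 19782460 and 20051857, and no cluster of either replicate or domain of 10000 bp or more lay in it. The next were 255241 bp from 12098890 to 12354132, where replicate 1 had 1 cluster, and 211046 bp from 14160550 to 14371597, where neither replicate had one. How far reads could be placed in these stretches is unknown from the lists, so they do not show that RPD3 was absent.

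Neighbouring X clusters often lay close together. In the combined list 454 of 1216 gaps between neighbours on X were under 2000 bp, which is 37.3%, against 34.4% on the autosomal arms. In the replicates the share was 32.7% and 29.0% on X, a mean of 30.9% ± 2.58, against 28.9% and 27.4% on the autosomal arms, a mean of 28.2% ± 1.07 (SD, n = 2). Against the 4 autosomal arms together the X share was the higher within each replicate, by more in replicate 1 than in replicate 2. The arms differed here too. Arm 2R alone had 30.4% in replicate 1 and 36.3% in the combined list, both under X, but 30.6% in replicate 2, which was above X. The SDs given are those of each share and not of the difference within a replicate, and no test was made. The median gap in replicate 1 was 4305 bp on X and 5851 bp on the autosomal arms. For replicate 2 these were 5239 and 6146 bp, and for the combined clusters 3566 and 4379 bp. On 2R alone the median gap in replicate 2 was 5133 bp, shorter than on X.

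Of the 1217 X clusters, 506 stood alone, with no other member within 2000 bp, and 711 stood in 257 runs of 2 or more. Those in runs had a median width of 2607 bp, and 56.5% of them were in both replicates, against 2007 bp and 44.1% for those alone. Overlap with the replicates rose with width, and the part of width in this difference was not tested. Domains of 10000 bp or more were not counted in runs, and 44 members lay under 2000 bp from one. Runs and members near such domains were not counted on the autosomal arms, so these values are not shown to be particular to X. The longest run held 11 clusters between 11218182 and 11264772, on 82.0% of its 46591 bp, with a median score of 1.15. Replicate 1 had 10 clusters in this stretch and replicate 2 had 7. A run of 9 clusters between 15340313 and 15371241 covered 85.2% of 30929 bp and included the cluster with the highest replicate 2 score. A run of 6 between 16823965 and 16838591 was of another kind, since 5 of its clusters were in neither replicate and each replicate had 1 cluster there. Of the 47 domains of 10000 bp or more on X, 33 had a member under 2000 bp away.

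Scores of X clusters were set against those of the autosomal arms within each list. Replicate 1 gave a median score of 0.910 for X clusters and 0.769 for autosomal ones. Replicate 2 gave 1.00 for X clusters and 0.824 for autosomal ones. The differences of 0.141 and 0.176 had a mean of 0.159 ± 0.0250 (SD, n = 2), and the combined list gave 0.542 against 0.451, a difference of 0.0914. With 2 replicates a two-sided exact sign-flip permutation test cannot go below p = 0.5, so no test between samples was made and the differences below are a description of these lists. Among combined clusters, the higher-scoring 50% alone, cut at 1 score for X and the autosomal arms alike, gave a difference of medians of 0.00445. The same share of replicate 1 gave 0.0868 and that of replicate 2 gave 0.112. The lists hold scores only past the authors' threshold, whose part in the difference was not tested. The labels do not give the sex of the larvae, and its part in the difference was not tested either.

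The offset on X ran through nearly the whole range of scores. In replicate 1 the 5th percentile was 0.494 on X and 0.392 on the autosomal arms, and the 95th was 1.83 on X and 1.58 on the autosomal arms. In replicate 2 the 5th percentile was 0.480 on X and 0.394 on the autosomal arms, and the 95th was 1.86 on X and 1.65 on the autosomal arms. As a ratio of X to the autosomal arms, this was 1.26 in replicate 1 and 1.22 in replicate 2 at the 5th percentile, 1.18 and 1.21 at the median, and 1.15 and 1.13 at the 95th. The top score was the exception. In replicate 1 it was 2.76 on X and 4.00 on the autosomal arms, and in replicate 2 it was 2.90 on X and 3.57 on the autosomal arms.

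**Figure D4:**
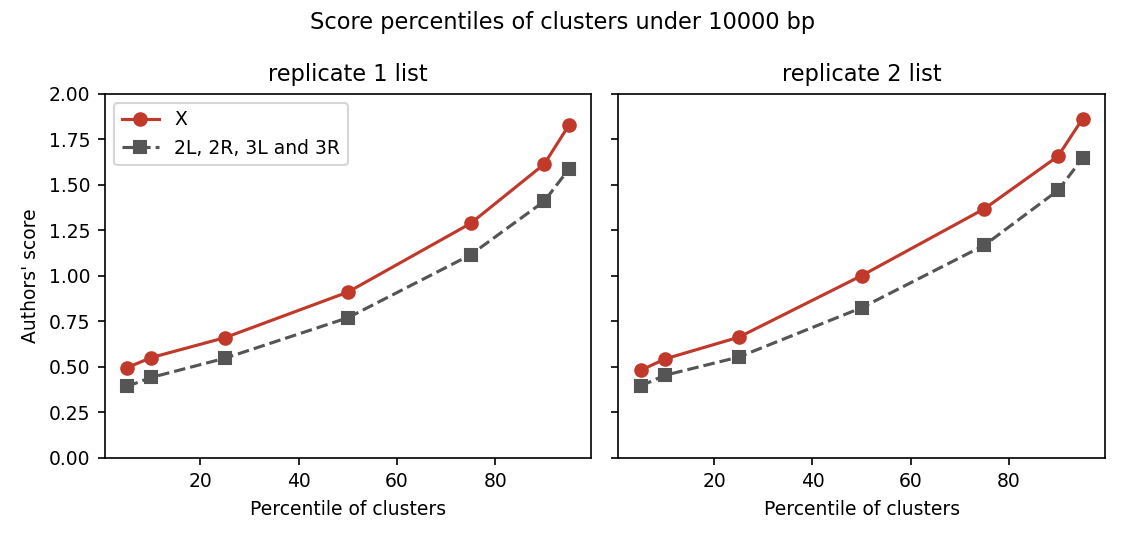
The authors' score (y axis) at the 5th, 10th, 25th, 50th, 75th, 90th and 95th percentile of clusters (x axis), for X and for the arms 2L, 2R, 3L and 3R together, in each replicate list. The X points lie above those of the autosomal arms at each of these percentiles in both replicates, by between 0.0858 and 0.241.

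The offset was also present at matched widths. For clusters under 1500 bp the median score in replicate 1 was 0.582 on X against 0.486 on the autosomal arms, and for those of 5000 bp and more it was 1.36 against 1.15. In replicate 2 the same bins gave 0.576 against 0.482 and 1.37 against 1.18. X was above the autosomal arms in each of the 5 width bins in both replicates and in the combined list, by between 0.0620 and 0.215. Averaged over bins with the X clusters as weights, the difference was 0.128 in replicate 1 and 0.147 in replicate 2, a mean of 0.138 ± 0.0129 (SD, n = 2), and 0.102 in the combined list. Widths themselves were close, with medians of 2571 bp on X and 2523 bp on the autosomal arms in replicate 1, and of 2641 and 2604 bp in replicate 2.

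**Figure D5:**
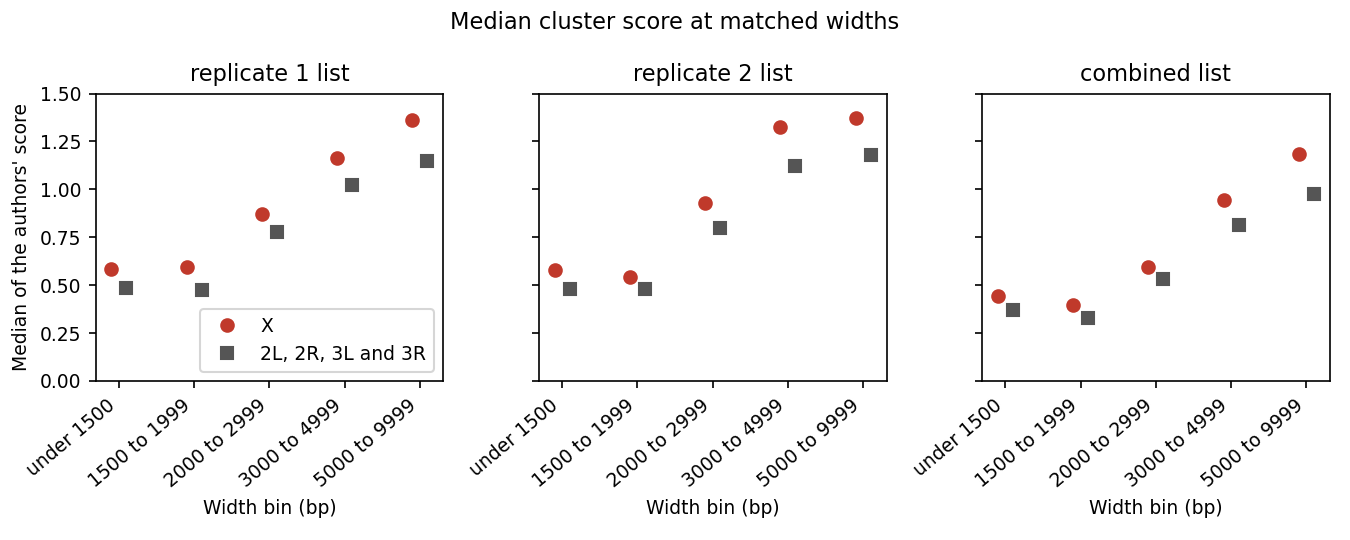
Median of the authors' score (y axis) for clusters in 5 width bins (x axis), on X and on the arms 2L, 2R, 3L and 3R together, in each of the 3 lists. In each bin and list the X point lies above that of the autosomal arms, by between 0.0620 and 0.215.

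Set against each autosomal arm in turn, X had the higher median score in all 3 lists. The difference ran from 0.119 (3R) to 0.163 (3L) in replicate 1, from 0.138 (3R) to 0.202 (2R) in replicate 2 and from 0.0834 (2R) to 0.101 (3L) in the combined list. At matched widths it ran from 0.116 to 0.146 in replicate 1, from 0.127 to 0.160 in replicate 2 and from 0.0810 to 0.118 in the combined list. The clusters that the replicates did not share had the offset too. In the combined list X clusters in both replicates had a median score of 0.960 against 0.819 on the autosomal arms, and those in neither had 0.434 against 0.367.

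The offset was spread along X. In the segments 0 to 5, 5 to 10, 10 to 15 and 15 to 20.4 Mb, the median score of X clusters exceeded that of all autosomal clusters by 0.105, 0.107, 0.145 and 0.170 in replicate 1, and by 0.0871, 0.238, 0.157 and 0.201 in replicate 2. At matched widths these were 0.1202, 0.139, 0.125 and 0.139 in replicate 1, and 0.116, 0.173, 0.144 and 0.165 in replicate 2. The first segment had the lowest value in both replicates. Among windows of 500 kb with at least 5 clusters, the window's median score was above the autosomal median in 35 of 40 on X (87.5%) in replicate 1, in 33 of 40 (82.5%) in replicate 2 and in 40 of 40 in the combined list. Of the windows on the autosomal arms, 48.6% were above it in replicate 1, 51.4% in replicate 2 and 48.3% in the combined list. The windows of X and of the autosomal arms overlapped widely, from 0.699 to 1.10 on X against 0.486 to 1.14 in replicate 1.

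High-scoring clusters were denser on X, while clusters of any score were about as dense on X as on the 4 autosomal arms together. Replicate 1 had 47.5 clusters per Mb on X and 45.3 on the autosomal arms, a ratio of 1.05. Replicate 2 had 42.9 on X and 41.9 on the autosomal arms, a ratio of 1.02. The arms differed among themselves: in the combined list the ratio of X was 1.17 against 2L, 1.11 against 3R and 1.04 against 3L, but 0.887 against 2R, which was denser than X. Of the clusters in the top 10% of scores over X and the autosomal arms together, 157 were on X in replicate 1 and 146 in replicate 2. This is 16.2% and 16.7% of the X clusters, where 10.0% of all clusters compared are in the top 10% in each list. Per Mb replicate 1 had 7.69 of them on X and 3.86 on the autosomal arms, and replicate 2 had 7.15 on X and 3.54 on the autosomal arms. These are ratios of 1.99 and 2.02, with a mean of 2.00 ± 0.0181 (SD, n = 2). In the combined list 174 of 1217 X clusters (14.3%) were in the top 10%, and the ratio was 1.67. In the whole lists, X in this range held 38 of the 100 highest scores in replicate 1, 35 in replicate 2 and 25 in the combined list, where 17.7%, 17.6% and 17.0% of all clusters of these lists were X clusters of the range.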

How the data were processed

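RPD3 was profiled by ChIP-seq in 2 ChIP samples, and each had its own Input. Per the submitters' processing notes, Bowtie 0.12.7 aligned the reads. The deposited lists give start, end and a score per cluster on FlyBase release 5, per the file headers. For the caller, its thresholds, how the authors joined the replicates and what scale the deposited score is on, the sources used here give nothing. No list is of Input alone, and depth is unknown. A region named as depleted, on 3L, was left out.

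Overlap meant at least 1 bp. Arms lost the 2 Mb next to the centromere and domains of 10000 bp or more. Widths were matched in 5 bins. Clusters are not replicates, so shares carry Wilson 95% intervals for counting error only and no p-value is given. The counting of overlaps and pairs was checked on random subsets of the replicate 1 X clusters, and width matching on resampled autosomal clusters of replicate 1. The subsets kept their edges, so shifted or split clusters were not tried. Python 3.11.15, numpy 2.4.6, pandas 2.3.3, scipy 1.17.1 and matplotlib 3.10.9 were used. The members, comparisons and lists were chosen with earlier results of these data known. Clusters were named by rank of score and width, by replicate overlap, and by the extremes of windows, gaps and runs, and the pairs of unequal score after their values were seen. The gene table at hand is for release 6, so genes and sequences were not used here.

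Alternatives were the higher-scoring 50% of each list, an overlap of 50% of the shorter cluster, each replicate list alone, no upper width limit, whole arms, a common minimum width of 1301 bp, merging of clusters closer than 200 bp, single autosomal arms and other window sizes. Those of the higher-scoring 50% of each replicate list were added after seeing the data.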

Additional observations from a re-analysis of the deposited data

How the results depend on the processing

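No paired analysis was possible because all the lists are of ChIP samples, with none of Input alone to set beside ChIP, while X and the autosomal arms were compared within each replicate. Of 85 alternatives over 11 results, 40 stayed within the limits set for each result. These limits were the spread between replicates, or an interval for the overlap shares and for rho. For the number of X clusters they were a fixed band around the main value, wider than the spread between replicates. Of the 85, 1 changed direction, the density ratio of X, which was 0.887 against 2R alone. The score difference of X from the autosomal arms was above 0 in all 24 of its alternatives and the top 10% ratio above 1 in all 10. Replicate lists alone gave 876 to 971 X clusters, median widths of 2571 to 2641 bp, score differences of 0.141 to 0.176, at matched widths 0.128 to 0.147, density ratios of 1.02 to 1.05, top 10% ratios of 1.99 to 2.02, 29.0% to 32.7% of gaps under 2000 bp and a densest window of 24.7% to 29.3%. The higher-scoring 50% of each list gave 719 X clusters, a median width of 3345 bp, 54.2% in both replicates, 30.5% in neither, a score difference of 0.00445, at matched widths 0.0678, a density ratio of 1.38, a top 10% ratio of 1.81, 23.7% of short gaps and a rho of 0.78. At matched widths those of replicate 1 gave 0.0864 and those of replicate 2 0.129. Each such share was cut at the median score of the whole list, before X and the autosomal arms were taken apart. It therefore holds fewer clusters by construction, and X and autosomal clusters in it share 1 lower score limit. The score differences and the density ratio depend on that limit, and how far was not tested. With no upper width limit the median width was 2405 bp and the top 10% ratio 1.71. With the common minimum width the values were 2731 bp, 61.8% in both, 14.1% in neither, a ratio of 1.82 and 33.9% of short gaps. With clusters closer than 200 bp merged they were 2405 bp and 31.3% of short gaps. Against 2L, 2R, 3L and 3R alone the top 10% ratio was 1.61, 1.51, 2.00 and 1.60. The density ratio was 1.17 against 2L and 1.11 against 3R, and the difference at matched widths 0.118 against 2R, 0.116 against 3L and 0.0810 against 3R. The densest window was 49.5% at 2.0 to 2.25 Mb with 250 kb windows and 28.1% at 1.0 to 2.0 Mb with 1000 kb windows. Since depth is unknown, a missing cluster is no evidence that RPD3 was absent.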
